A study of Mus musculus with 9 samples.

Results

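The CXC chemokines and their receptors were described in mouse bone marrow derived macrophages (BMDMs) by 9 genes, taken from the deposited table of raw read counts by symbol. The 9 genes were the ligands Cxcl1, Cxcl2, Cxcl3, Ppbp, Pf4, Cxcl10 and Cxcl16 and the receptors Cxcr4 and Ackr3, of 53465 genes in that table, and each symbol named a single measured gene here. RNA-Seq covered 9 libraries in 3 groups of 3. BMDMs were grown from marrow of male wild-type C57BL/6 mice in CSF1 at 50 ng/ml for 5 to 10 days. They were then left untreated (UNX), or treated with medium conditioned by pulmonary artery adventitial fibroblasts of control calves (CO-CM) or of calves with hypoxia-induced pulmonary hypertension (PH-CM). Treatment lasted 16 h by the growth protocol of the labels but 24 h by their treatment protocol. The paper states a time between these. Each medium was a pool of fibroblast populations, so the 3 libraries of a group came from repeated macrophage cultures, not from different calves. The medium was bovine and the macrophages were mouse, and the same UNX libraries served both comparisons with untreated cells. No group received medium without fibroblast conditioning. Against UNX, the conditioning and the change of medium therefore cannot be told apart.

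CXC chemokines are small secreted proteins whose first pair of cysteines is separated by a single residue. Ligands that carry glutamate, leucine and arginine (ELR) just before these cysteines act on Cxcr2 and attract neutrophils, whereas ligands without ELR mainly attract lymphocytes and monocytes. In macrophages ELR ligands are classical early targets of NF-kB, and Cxcl10 is a classical target of interferon. Cxcr4 is the receptor of Cxcl12, and Ackr3 (also named Cxcr7) binds the same ligand, carries it into the cell and does not couple to G proteins.

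The coding sequence around the first CXC cysteine separates the 7 ligands into these classes, and it is printed so that the classes used below can be read directly. The bases were taken from GENCODE M21 transcripts (GRCm38), the capitals mark the 3 codons just before the cysteine codon, and in all 7 genes these codons lay in exon 2.
Cxcl1: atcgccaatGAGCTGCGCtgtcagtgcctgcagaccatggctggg
Cxcl2: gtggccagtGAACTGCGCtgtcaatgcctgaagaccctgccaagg
Cxcl3: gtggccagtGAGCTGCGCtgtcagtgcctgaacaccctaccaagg
Ppbp: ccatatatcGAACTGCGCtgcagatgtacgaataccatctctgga
Pf4: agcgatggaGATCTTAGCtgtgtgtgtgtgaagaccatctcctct
Cxcl10: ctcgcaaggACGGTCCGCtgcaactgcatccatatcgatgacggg
Cxcl16: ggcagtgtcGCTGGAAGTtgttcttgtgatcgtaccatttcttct
Cxcl1, Cxcl2, Cxcl3 and Ppbp encoded ELR, with either GAG or GAA for the glutamate and identical bases for the rest. Pf4, Cxcl10 and Cxcl16 did not encode it. The cysteine was codon 33 of 96 in Cxcl1, codon 36 of 100 in both Cxcl2 and Cxcl3, and codon 52 of 113 in Ppbp, which is made as a longer precursor.

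Libraries held between 62017933 and 84314201 counted reads. Of the counts below 20, even values made up 81.4% to 83.8% in each library, as when both mates of a pair are counted, so a count stands for fewer fragments than reads. Of the genes in the table, 11950 had more than 1 CPM (the read count scaled to library size) in at least 3 libraries and were tested. A gene was called at a false discovery rate (FDR) of at most 0.05 over all these genes and a fold change of at least 1.2, from an edgeR quasi-likelihood fit. The media changed a large part of the transcriptome. PH-CM against UNX called 63.0% of tested genes, 31.3% higher and 31.7% lower. CO-CM against UNX called 57.0%, 28.0% higher and 28.9% lower, and PH-CM against CO-CM called 27.1%, 12.2% higher and 15.0% lower.

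All 9 CXC genes passed the filter, but Cxcl1, Cxcl3, Ppbp and Ackr3 passed it through the PH-CM libraries alone, and Cxcl10 through the UNX libraries and a single PH-CM library. Genes let in by 1 group had to differ, so the counts and medians over the 9 genes describe them and give no support to a direction. With PH-CM, 8 of the 9 genes were higher than in UNX and Cxcl10 was lower, with a median log2 change of 3.20 against 0.01 over all tested genes. With CO-CM, 3 were higher (Cxcl1, Cxcl16, Cxcr4), 3 were lower (Cxcl10, Ppbp, Pf4) and 3 were not called, with a median of 0.12 against 0.0. Between the media, 7 were higher with PH-CM and none was lower, while Cxcl10 and Cxcr4 were not called, with a median of 2.01 against -0.01. The lowest and highest libraries of the compared groups did not overlap for 9, 6 and 8 of the 9 genes in these comparisons, where 77.7%, 72.0% and 50.2% of all tested genes did not overlap. In bulk RNA, a change in the number of cells that make a transcript and a change in the RNA made per cell cannot be told apart.

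**Figure D1:**
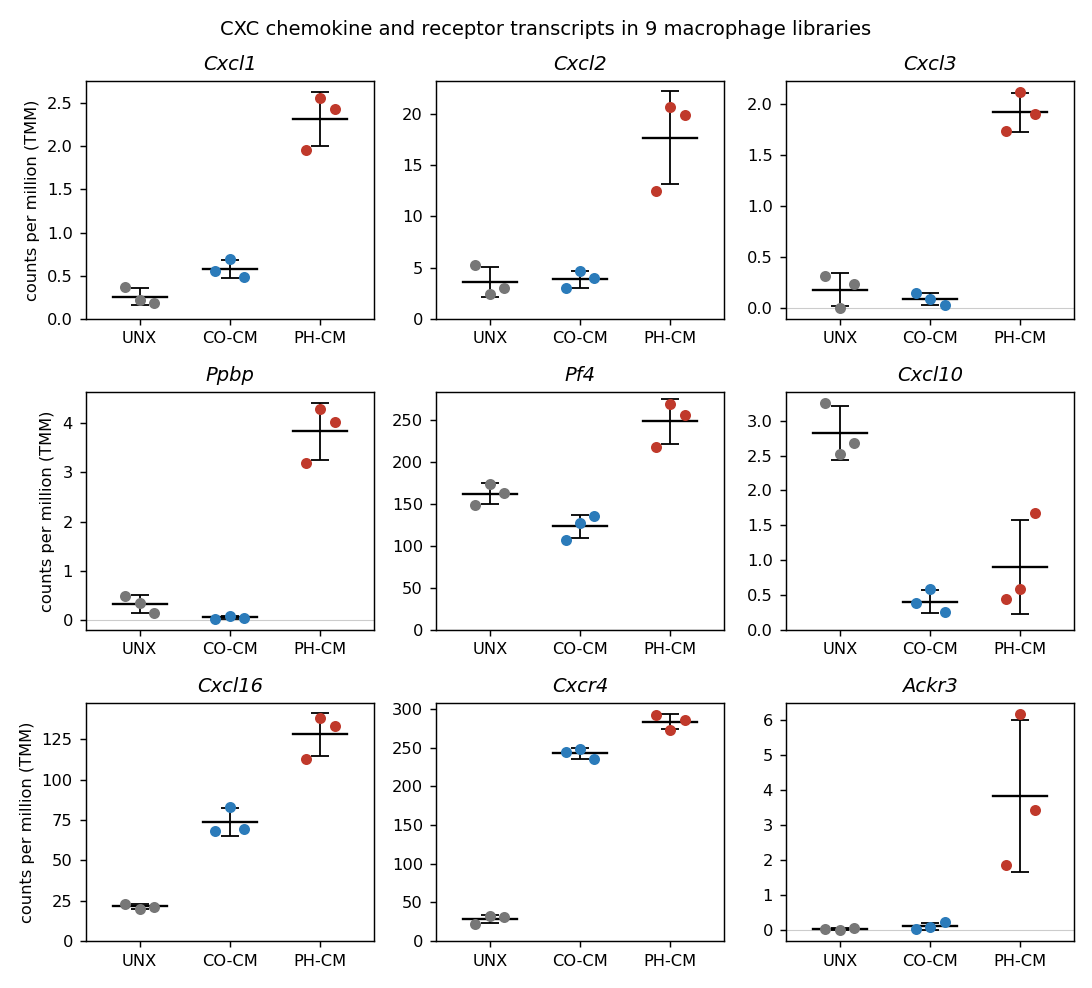
CPM (y axes, TMM-normalized, each with its own scale) of the 9 CXC genes in each of the 9 libraries, grouped as UNX, CO-CM and PH-CM on the x axes, with points for libraries, a bar for the mean of 3 and whiskers for the SD. For every gene except Cxcl10 the 3 PH-CM libraries stood above all others, and Cxcl1, Cxcl3, Ppbp and Ackr3 passed the filter through these libraries alone. Cxcr4 was raised from a mean of 28.4 to 243 and 284 CPM by both media, and Cxcl10 was highest in UNX.

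**Figure D2:**
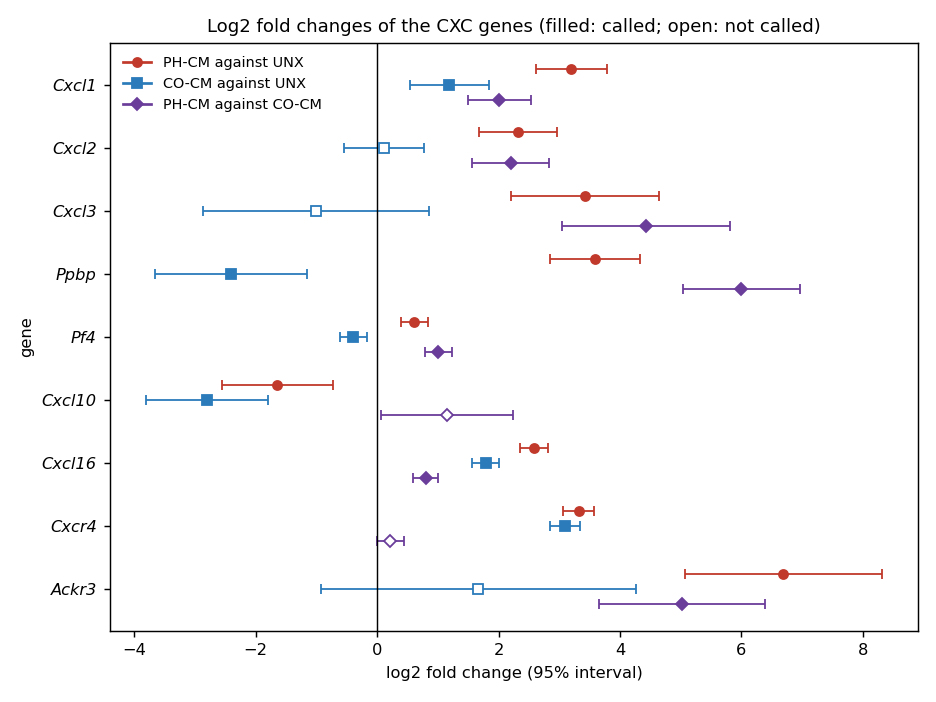
Log2 fold change (x axis) with its 95% interval for each CXC gene (y axis) in the 3 comparisons, with filled symbols for called genes and open symbols for genes not called. The values of PH-CM against UNX ran from -1.64 for Cxcl10 to 6.69 for Ackr3, and those of CO-CM against UNX lay on both sides of 0.

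Among the ELR ligands, the neutrophil attractants Cxcl1, Cxcl2, Cxcl3 and Ppbp were all higher with PH-CM than in either other group. Cxcl1, Cxcl3 and Ppbp passed the filter through the PH-CM libraries alone, whereas Cxcl2 passed it in every group. The shared direction of the 4 genes therefore describes them and gives no support to a response of the class. Cxcl1, the mouse chemokine KC, had 24, 16 and 16 reads in UNX, 38, 46 and 34 in CO-CM and 132, 159 and 154 in PH-CM. No library of one group reached into another, so the order was UNX, then CO-CM, then PH-CM. Its mean was 0.256 ± 0.0997 CPM in UNX, 0.574 ± 0.106 in CO-CM and 2.32 ± 0.315 in PH-CM (SD, n = 3 each). PH-CM raised it 9.2-fold over UNX (log2 change 3.20, SE 0.26, edgeR FDR 1.41e-06) and 4.04-fold over CO-CM (log2 2.01, SE 0.24, edgeR FDR 0.000104). Cxcl1 was the ELR ligand that also rose with CO-CM, by 1.19 on the log2 scale (SE 0.29, edgeR FDR 0.00416).

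Cxcl2, also known as MIP-2, had the highest RPKM of the ELR ligands in every group. It had 340, 184 and 260 reads in UNX, 202, 312 and 280 in CO-CM and 837, 1284 and 1258 in PH-CM. The UNX and CO-CM libraries overlapped, and every PH-CM library lay above them. The PH-CM mean of 17.7 ± 4.54 CPM compared with 3.57 ± 1.48 in UNX and 3.85 ± 0.86 in CO-CM (SD, n = 3 each). Its log2 change was 2.32 against UNX (SE 0.29, edgeR FDR 3.31e-05) and 2.20 against CO-CM (SE 0.29, edgeR FDR 0.000204). CO-CM against UNX gave 0.12 with a 95% interval of -0.54 to 0.78 (edgeR FDR 0.731), and the sign turned to -0.10 without UNX replicate 2 and to -0.04 without CO-CM replicate 2.

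Cxcl3 was close to the detection limit outside PH-CM. Its reads were 20, 0 and 20 in UNX, 10, 6 and 2 in CO-CM and 117, 132 and 120 in PH-CM. The lowest PH-CM library thus held several times the reads of the highest library elsewhere, and UNX and CO-CM overlapped. PH-CM was higher than UNX by 3.42 on the log2 scale (SE 0.55, edgeR FDR 0.000211) and higher than CO-CM by 4.43 (SE 0.62, edgeR FDR 0.000336). Without UNX replicate 2, the library at 0 reads, the difference from UNX was 2.83. CO-CM against UNX was not called at -1.01 (95% interval -2.86 to 0.85, edgeR FDR 0.302), but without that same library it was -1.6 with an edgeR FDR of 0.0134.

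Ppbp, the precursor of the platelet chemokine NAP-2, moved in opposite directions with the 2 media. It had 32, 26 and 12 reads in UNX, 2, 6 and 4 in CO-CM and 214, 266 and 254 in PH-CM. The 3 groups did not overlap, with CO-CM lowest and PH-CM highest. CO-CM lowered it to 0.189 of the untreated level (log2 -2.40, SE 0.56, edgeR FDR 0.00313), whereas PH-CM raised it 12.1-fold (log2 3.59, SE 0.33, edgeR FDR 3.57e-06). Between the media it differed 63.8-fold (log2 6.00, 95% interval 5.03 to 6.96, edgeR FDR 4.02e-06), and the 12 reads over all CO-CM libraries limit the precision of that fold. Summed over the 4 ELR genes, the level was 2.99 to 6.42 CPM per UNX library, 3.69 to 5.54 with CO-CM and 19.3 to 29.6 with PH-CM. Of these 4 genes, Cxcl2 alone passed the filter in every group. Cxcl2 supplied 81.4% to 84.4% of the reads in that sum in UNX, 80.2% to 87.5% in CO-CM and 64.4% to 70.4% in PH-CM.

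The 4 ELR genes and Pf4 lie together on chromosome 5 (GRCm38), in a cluster of 146.6 kb from the start of Cxcl5 at 90759360 to the end of Cxcl2 at 90905938. All 5 are on the plus strand. Ppbp spans 90768518 to 90770063, Pf4 90772435 to 90773383, Cxcl3 90786103 to 90789600, Cxcl1 90891241 to 90893115 and Cxcl2 90903871 to 90905938. Cxcl5, a further ELR gene at the head of the cluster, had 18, 28 and 34 reads in UNX, 2, 6 and 8 in CO-CM and 52, 78 and 78 in PH-CM and stayed under the CPM filter. In the fit with edgeR's own filter, which kept it, Cxcl5 was lower with CO-CM than in UNX by 2.18 (log2 -2.18, SE 0.44, edgeR FDR 0.00123) and higher with PH-CM by 1.59 (SE 0.33, edgeR FDR 0.00138). Its groups, like those of Ppbp 6.9 kb away, did not overlap. Cxcl15, between Cxcl3 and Cxcl1, had a single read in all libraries. Mthfd2l, a mitochondrial folate enzyme gene 25.2 kb beyond Cxcl2, was lower with both media, with log2 changes of -0.78 for CO-CM (SE 0.10, edgeR FDR 5.84e-05) and -0.57 for PH-CM (SE 0.10, edgeR FDR 0.00043).

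**Figure D3:**
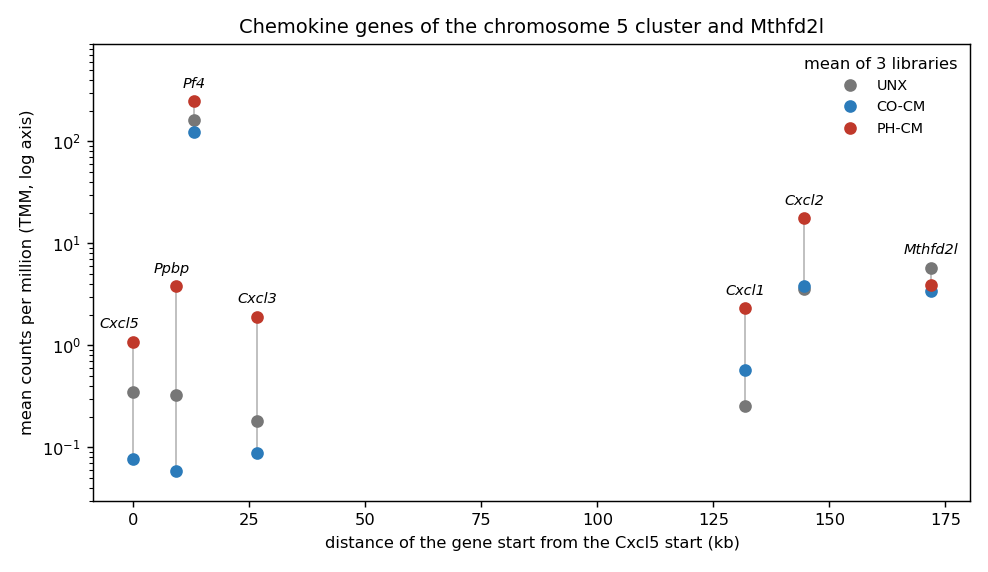
Mean CPM of 3 libraries per group (y axis, log scale) for the measured chemokine genes of the chromosome 5 cluster and for the flanking gene Mthfd2l, placed by the distance of each gene's start from the Cxcl5 start in kb (x axis). PH-CM was the highest group for every chemokine gene, whereas UNX was the highest for Mthfd2l at 5.8 CPM. CO-CM was the lowest group for Cxcl5, Ppbp, Pf4 and Cxcl3 and lay between the others for Cxcl1 and Cxcl2.

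The promoters of Cxcl1, Cxcl2 and Cxcl3 are shown because these genes moved together with PH-CM and each held the same NF-kB letters. The stretches come from the RefSeq promoter windows (GRCm38.p6, plus strand, chr5:90891127-90891226, chr5:90903771-90903870 and chr5:90785998-90786097), and capitals mark each match to GGGNNTTTC on either strand.
Cxcl1: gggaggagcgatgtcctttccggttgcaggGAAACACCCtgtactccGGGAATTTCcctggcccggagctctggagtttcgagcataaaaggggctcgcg
Cxcl2: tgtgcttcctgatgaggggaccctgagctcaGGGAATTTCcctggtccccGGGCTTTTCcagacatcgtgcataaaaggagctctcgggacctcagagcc
Cxcl3: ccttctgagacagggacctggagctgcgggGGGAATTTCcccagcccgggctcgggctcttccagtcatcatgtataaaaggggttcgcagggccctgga
The letters GGGAATTTC began at position -71 from the RefSeq start in Cxcl1, -97 in Cxcl2 and -73 in Cxcl3, and Cxcl1 and Cxcl2 held a second match. Of the 8 genes with a RefSeq window (250 bases before to 50 after the start), Cxcl1, Cxcl2, Cxcl3 and Cxcr4 held a match, which 4.36% of 32851 promoter windows had. The match in Cxcr4 lay farther out, at position -223 and on the other strand. Ppbp, Pf4, Cxcl10 and Ackr3 had no match in these windows, which says only that these letters were not there. Other spellings of an NF-kB site were not searched. Matches to AP-1 (TGANTCA) were in Ppbp and Cxcl10, and in 7.81% of all windows. No match to CRE (TGACGTCA, 1.79% of all windows) or STAT (TTCNNNGAA, 8.3%) was found in the 8. The short hypoxia response cores ACGTG and GCGTG, held by 19.6% and 32.4% of all windows, were each in 4 of the 8. No match of one motif overlapped a match of another. A match is a description of the letters and not a bound site.

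Transcription factors known to act on these genes were read from a list of 20, all tested. The list also held Nfkbia, an inhibitor of NF-kB and not itself a transcription factor. Nfkbia was among the genes higher than in UNX with both media (log2 0.69 with PH-CM and 0.41 with CO-CM). The counts of this and the following lists stand beside the shares of all tested genes, 31.3% higher and 31.7% lower with PH-CM and 28.0% and 28.9% with CO-CM against UNX, and 12.2% and 15.0% between the media. With PH-CM, 13 were higher than in UNX and 1 was lower (median log2 change 0.61). With CO-CM, 12 were higher and 5 lower (median 0.34), and between the media 10 were higher and 2 lower with PH-CM (median 0.28). Bcl3, an atypical inhibitor of NF-kB that also acts as a co-activator, changed most in both comparisons with UNX, from a mean of 11.7 CPM to 29.1 with CO-CM (log2 1.31, SE 0.11, edgeR FDR 1.87e-06) and 53.8 with PH-CM (log2 2.20, SE 0.11, edgeR FDR 3.12e-08). Between the media the largest rise was that of Cebpb, a factor of inflammatory myeloid genes, from 54.3 to 164 CPM (log2 1.6, SE 0.11, edgeR FDR 3.04e-06). The largest fall there was that of Epas1, the hypoxia-inducible factor HIF2A, which dropped by 0.80 (log2 -0.80, SE 0.10, edgeR FDR 0.000189). Irf7, a regulator of interferon genes, fell most with CO-CM (log2 -1.05, SE 0.18, edgeR FDR 0.000353).

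Of the ligands without ELR, Pf4, the platelet factor stored in platelet granules and also made by macrophages, had the highest RPKM of the 9 genes in every group. It had 149, 174 and 163 CPM in UNX, 107, 127 and 135 in CO-CM and 218, 269 and 256 in PH-CM. The groups did not overlap, and PH-CM was above UNX and CO-CM below it. The changes were small beside those of its neighbours. CO-CM lowered it to 0.761 of the untreated level (log2 -0.39, SE 0.099, edgeR FDR 0.00485) and PH-CM raised it 1.53-fold (log2 0.61, SE 0.099, edgeR FDR 0.000227). Between the media it differed 2.01-fold (log2 1.01, SE 0.10, edgeR FDR 3.32e-05). Ppbp ends 2.4 kb before the start of Pf4 and had the same order of groups over a far wider range.

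Because Pf4 and Ppbp are known from platelets and megakaryocytes, markers of these cells were read beside them. Of 11 such markers 3 were tested, Vwf, Treml1 and Gp1ba, and their summed level with the other 8 was 102 to 153 CPM per UNX library, 400 to 474 with CO-CM and 259 to 282 with PH-CM. Nearly all of this was Vwf, at up to 464 CPM. Vwf and Treml1 were higher with both media than in UNX, and Gp1ba was not called in any comparison. Among the markers under the filter, Itga2b had 54, 79 and 101 reads over the UNX, CO-CM and PH-CM libraries, Clec1b 42, 100 and 38, and Tubb1 6, 50 and 43. Gp1bb and Gp5 had between 8 and 18 reads over each group, Gp6 had no read in any library, and Gp9 had 2 reads, both in PH-CM. The summed level was highest with CO-CM, where Pf4 and Ppbp were lowest, and the part of such cells in the Pf4 and Ppbp values was not tested.

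Cxcl10, the interferon-induced ligand of Cxcr3, was the CXC gene lowered by both media. It lies on the minus strand of chromosome 5 from 92346638 to 92348889 and overlaps Art3 on the other strand by 133 exon bases, but Art3 had at most 3 reads per library. Cxcl10 had 211, 190 and 230 reads in UNX, 26, 39 and 18 in CO-CM and 30, 36 and 106 in PH-CM. The UNX libraries lay above all others, while CO-CM and PH-CM overlapped and PH-CM replicate 3 stood apart from the other two. CO-CM lowered it to 0.144 of the untreated level (log2 -2.80, SE 0.45, edgeR FDR 0.000277) and PH-CM to 0.32 (log2 -1.64, SE 0.41, edgeR FDR 0.0042), the latter becoming -2.45 without PH-CM replicate 3. PH-CM against CO-CM was 1.15 (95% interval 0.06 to 2.24) and was not called (edgeR FDR 0.0896). That comparison was called without PH-CM replicate 1 (log2 1.49, edgeR FDR 0.0325), without the filter on low counts (edgeR FDR 0.00781) and by the DESeq2 Wald test (adjusted p 0.0352), and it fell to 0.34 without PH-CM replicate 3.

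The RefSeq promoter of Cxcl10 is printed because it was the only one of the 8 with a match to the interferon-stimulated response element, searched as TTTCNNTTT on both strands and held by 10.6% of all windows. It covers the 250 bases before the start on the minus strand (GRCm38.p6, chr5:92348890-92349139), and the match at position -212 is in capitals.
Cxcl10: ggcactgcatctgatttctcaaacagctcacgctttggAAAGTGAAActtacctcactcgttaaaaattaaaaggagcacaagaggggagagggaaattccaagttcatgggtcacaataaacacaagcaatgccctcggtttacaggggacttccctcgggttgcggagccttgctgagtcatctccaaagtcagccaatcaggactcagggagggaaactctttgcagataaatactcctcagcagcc
A list of 10 other interferon-stimulated genes was read beside it. None of them was higher with either medium than in UNX, 9 were lower with CO-CM (median log2 change -1.36) and 7 with PH-CM (median -0.69), and 7 were higher with PH-CM than with CO-CM (median 0.72). Oasl1, an inhibitor of Irf7 translation, fell most with CO-CM, from 2.19 to 0.358 CPM (log2 -2.61, SE 0.27, edgeR FDR 9.66e-06), and differed most between the media (log2 1.89, SE 0.27, edgeR FDR 0.000397). Ifit2, which binds viral RNA, fell most with PH-CM (log2 -1.10, SE 0.21, edgeR FDR 0.000641). The other genes of the Cxcl10 cluster were barely detected, with at most 6 reads of Cxcl9 and at most 2 of Cxcl11 in a library. The next gene beyond that cluster, the nucleoporin gene Nup54, was also lower with both media, by -0.91 with CO-CM (SE 0.082, edgeR FDR 3.98e-06) and -0.92 with PH-CM (SE 0.082, edgeR FDR 2.85e-06).

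**Figure D4:**
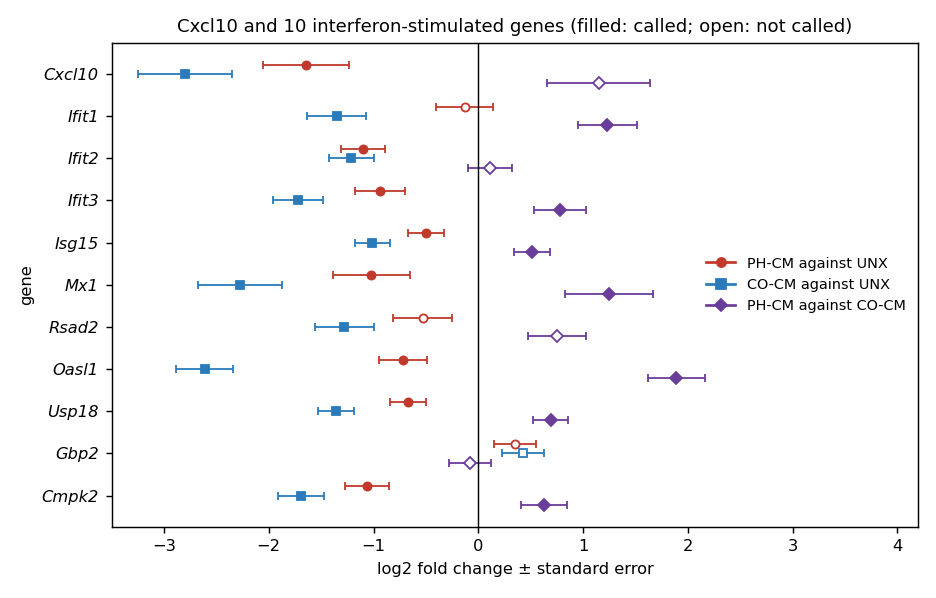
Log2 fold change (x axis) with its standard error for Cxcl10 and 10 interferon-stimulated genes (y axis) in the 3 comparisons, with filled symbols for called genes and open symbols for genes not called. Against UNX, values of CO-CM ran down to -2.80 for Cxcl10 and -2.61 for Oasl1, whereas Gbp2 was not called in any comparison.

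Cxcl16, a membrane-bound chemokine that binds Cxcr6 and also takes up oxidized lipoprotein, was raised by both media and more by PH-CM. It had 23.1, 19.9 and 21.1 CPM in UNX, 68.2, 83.3 and 69.6 in CO-CM and 113, 138 and 133 in PH-CM. The 3 groups stood apart from each other. CO-CM raised it 3.45-fold (log2 1.79, SE 0.10, edgeR FDR 1.26e-07), PH-CM 6.01-fold (log2 2.59, SE 0.10, edgeR FDR 7.06e-09), and the media differed 1.74-fold (log2 0.80, SE 0.095, edgeR FDR 0.000115). Cxcl16 lies on the minus strand of chromosome 11 from 70453983 to 70459984 and shares 552 exon bases with Zmynd15 on the other strand. Zmynd15 moved the same way, from 1.02 CPM in UNX to 7.47 with CO-CM (log2 2.88, SE 0.15, edgeR FDR 8.92e-08) and 16.2 with PH-CM (log2 4.0, SE 0.15, edgeR FDR 5.49e-09). No strand option was listed for the counting, so reads of these 2 genes cannot be told apart by strand near the shared bases. By default, reads that overlap both genes are counted for neither. On the other side Med11, 0.3 kb away, was not called in any comparison.

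Cxcl16 and other chemokines are released or trimmed by proteases. Of a list of 12, 10 were tested, 7 were higher and 2 lower with PH-CM than in UNX, and 6 were higher and none lower with CO-CM. The list also held Rhbdf2, a partner of Adam17 and not itself a protease. Rhbdf2 was among those higher with PH-CM (log2 0.31, edgeR FDR 0.00154) and was not called with CO-CM. Adam17, a sheddase of Cxcl16, rose by 0.58 with CO-CM (edgeR FDR 1.06e-05) and by 0.28 with PH-CM (edgeR FDR 0.00149), and Adam10, the other sheddase, was not called with either. Mmp8, a collagenase that trims ELR chemokines, rose most against UNX, from 4.84 to 12.9 CPM with CO-CM and 24.7 with PH-CM (log2 1.41 and 2.34, SE 0.12 for both, edgeR FDR 2.51e-06 and 4.33e-08). Mmp12, the macrophage elastase that inactivates ELR chemokines, fell most with PH-CM, from 476 CPM to 88.8 (log2 -2.42, SE 0.50, edgeR FDR 0.00124), and stood at 472 CPM with CO-CM. Between the media the largest rise was that of the lysosomal protease gene Ctsl, from 2380 to 5240 CPM (log2 1.14, SE 0.091, edgeR FDR 7.97e-06), and the largest fall was that of Mmp12 (log2 -2.41, SE 0.50, edgeR FDR 0.0036). Adam10, Adam17, Rhbdf2, Nfkbia and Mif fell outside the rule for named genes and were chosen after their values were seen.

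The receptors differed from each other in how they responded. Cxcr4 was raised by both media to nearly the same level. It had 22.5, 31.9 and 30.8 CPM in UNX, with means of 243 ± 7.07 in CO-CM and 284 ± 10.1 in PH-CM (SD, n = 3 each). The UNX libraries lay far below the rest, and the lowest PH-CM library (273 CPM) was above the highest CO-CM library (249 CPM). CO-CM raised Cxcr4 8.55-fold (log2 3.10, SE 0.11, edgeR FDR 9.57e-09) and PH-CM 9.99-fold (log2 3.32, SE 0.11, edgeR FDR 2.87e-09). The difference between the media was 0.22 on the log2 scale (95% interval -0.0043 to 0.45) and was not called (edgeR FDR 0.113). Cxcr4 lies on the minus strand of chromosome 1 from 128588199 to 128592293, 170.8 kb from Dars, the nearest measured coding gene, which was not called in any comparison.

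Ackr3 was at the edge of detection except with PH-CM, and it passed the filter through the PH-CM libraries alone. It lies on the plus strand of chromosome 1 from 90203980 to 90216751. Its reads were 2, 0 and 6 in UNX, 2, 6 and 16 in CO-CM and 126, 383 and 216 in PH-CM. Every PH-CM library lay far above every other one, but the PH-CM libraries spread widely among themselves, with an SD of 56.9% of the mean. PH-CM against CO-CM gave a log2 change of 5.02 (95% interval 3.65 to 6.39, edgeR FDR 0.000137), which was 5.97 without CO-CM replicate 3. PH-CM against UNX rested on 8 reads in UNX, and its 95% interval ran from 5.07 to 8.31 on the log2 scale, with 7.88 as the estimate without UNX replicate 3. CO-CM against UNX was not called at 1.67 (95% interval -0.93 to 4.27, edgeR FDR 0.226), and it was 2.86 without UNX replicate 3 and 0.72 without CO-CM replicate 3. The exact test of edgeR called it with an FDR of 0.0313.

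Cxcl12, the ligand that Cxcr4 and Ackr3 share, was present at 3.07 CPM in UNX and rose with both media, to 5.47 with CO-CM (log2 0.83, edgeR FDR 0.00297) and 6.14 with PH-CM (log2 1.00, edgeR FDR 0.000796), with no call between the media (log2 0.17, edgeR FDR 0.519). Cxcl12 is also a product of stromal cells, and fibroblast markers summed to 200 to 253 CPM per UNX library, 274 to 325 with CO-CM and 254 to 339 with PH-CM, of which Col1a1 was the largest at up to 170 CPM. Of these 9 markers 7 were tested, with 3 higher with CO-CM and 4 with PH-CM than in UNX. The part of such cells in the Cxcl12 values was not tested. The further ligands and the co-receptor of these receptors varied in direction. Mif, a cytokine that binds Cxcr4, was not called in any comparison, and Hmgb1, which acts with Cxcl12, fell with both media, by 0.97 with PH-CM (log2 -0.97, SE 0.053, edgeR FDR 6.82e-08). Cd74, the partner of Cxcr4 in Mif binding, rose with CO-CM (log2 0.81, SE 0.16, edgeR FDR 0.000994) and was lower with PH-CM than with CO-CM (log2 -0.63, SE 0.16, edgeR FDR 0.0101). Adm, a hormone that Ackr3 scavenges, fell with CO-CM (log2 -1.17, SE 0.40, edgeR FDR 0.0241).

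Genes that carry the signal of chemokine receptors were called in both directions, and against UNX at shares near or below those of all tested genes. Of 24 tested, 7 were higher and 6 lower with PH-CM than in UNX (median log2 change -0.10), 3 were higher and 7 lower with CO-CM (median -0.13), and 6 were higher and 2 lower with PH-CM than with CO-CM (median 0.04). Prex1, an exchange factor for Rac that is opened by G protein subunits, rose most with both media, by 0.73 with CO-CM (SE 0.060, edgeR FDR 2.06e-06) and 0.97 with PH-CM (SE 0.060, edgeR FDR 1.71e-07). Elmo1, another activator of Rac, fell most with PH-CM (log2 -1.33, SE 0.098, edgeR FDR 6.52e-07), and Rgs14, which shortens G protein signals, fell most with CO-CM (log2 -1.07, SE 0.054, edgeR FDR 6.85e-08). Between the media the largest rise was that of Arrb2, the arrestin that links chemokine receptors to internalization (log2 0.69, SE 0.058, edgeR FDR 1.13e-05), and the largest fall that of Rgs2 (log2 -0.45, SE 0.098, edgeR FDR 0.00446).

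Levels of the 9 genes were compared with each other per length, as the deposited RPKM. In every group the order began with Pf4, Cxcr4, Cxcl16 and Cxcl2. In UNX their mean RPKM was 230, 16.1, 7.28 and 1.78, in CO-CM 167, 132, 23.9 and 1.82, and in PH-CM 339, 155, 41.9 and 8.43. No library of one of these genes reached the next in the order within a group, except that Cxcl2 and the fifth gene, Cxcl10, overlapped in UNX. Below them Cxcl10 led in UNX (1.29 RPKM), Cxcl1 in CO-CM (0.30) and Ppbp in PH-CM (3.49), and Cxcl10 was last in PH-CM (0.394). Among the lower genes, Ppbp and Cxcl1 overlapped in UNX and so did Cxcl3 and Ackr3. In CO-CM Cxcl1 overlapped Cxcl10, Ppbp overlapped Ackr3 and Ackr3 overlapped Cxcl3, and in PH-CM Cxcl1 overlapped Ackr3, Ackr3 overlapped Cxcl3 and Cxcl3 overlapped Cxcl10. The length behind RPKM counts every annotated exon, retained introns included, so it was 3498 bases for Cxcl3 against 1016 in its coding transcript, 1875 against 953 for Cxcl1, 2068 against 1109 for Cxcl2 and 2252 against 1094 for Cxcl10. The RPKM of these 4 genes is then lower than per length of the coding transcript. By RPKM, Pf4 ranked 169 among the 11950 tested genes in UNX, 230 in CO-CM and 96 in PH-CM, and Cxcr4 ranked 3194, 297 and 235.

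Most of the other CXC genes were not measured well enough to test. Of 13 further CXC ligands and receptors, 3 passed the filter, Cxcl12, Cxcl14 and Cxcr3. Cxcl14, a ligand of epithelia and monocytes, rose with CO-CM from 18 to 28.9 CPM (log2 0.69, SE 0.099, edgeR FDR 0.000119) and fell with PH-CM to 13.8 (log2 -0.38, edgeR FDR 0.00545), the reverse order of that of Ppbp and Pf4. Cxcr3, the receptor of Cxcl10, rose with CO-CM (log2 0.43, edgeR FDR 0.0147) and was lower with PH-CM than with CO-CM (log2 -0.59, edgeR FDR 0.00662). Cxcr2, the receptor of the ELR ligands, had 28 reads over the UNX libraries, 14 over CO-CM and 2 over PH-CM, and Cxcr6, the receptor of Cxcl16, had 15, 15 and 33. Cxcl5, Cxcl9, Cxcl11, Cxcl15, Cxcl17, Cxcr1 and Cxcr5 were also under the filter, and Cxcl13 had no read. Of 8 atypical, CX3C and XC genes, 2 were tested. Ccrl2, a non-signaling receptor that presents chemerin, rose with both media much as Cxcr4 did, from 2.80 to 15.4 CPM with CO-CM and 16.1 with PH-CM (log2 2.45 and 2.51, edgeR FDR 3.14e-07 and 1.81e-07). Cx3cr1, the fractalkine receptor, fell with PH-CM from 4.96 to 0.652 CPM (log2 -2.91, edgeR FDR 4.87e-05), was not called with CO-CM (log2 0.60, edgeR FDR 0.106) and differed between the media (log2 -3.51, edgeR FDR 5.9e-05). Ackr1, Ackr2, Ackr4, Cx3cl1, Xcl1 and Xcr1 were under the filter.

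**Figure D5:**
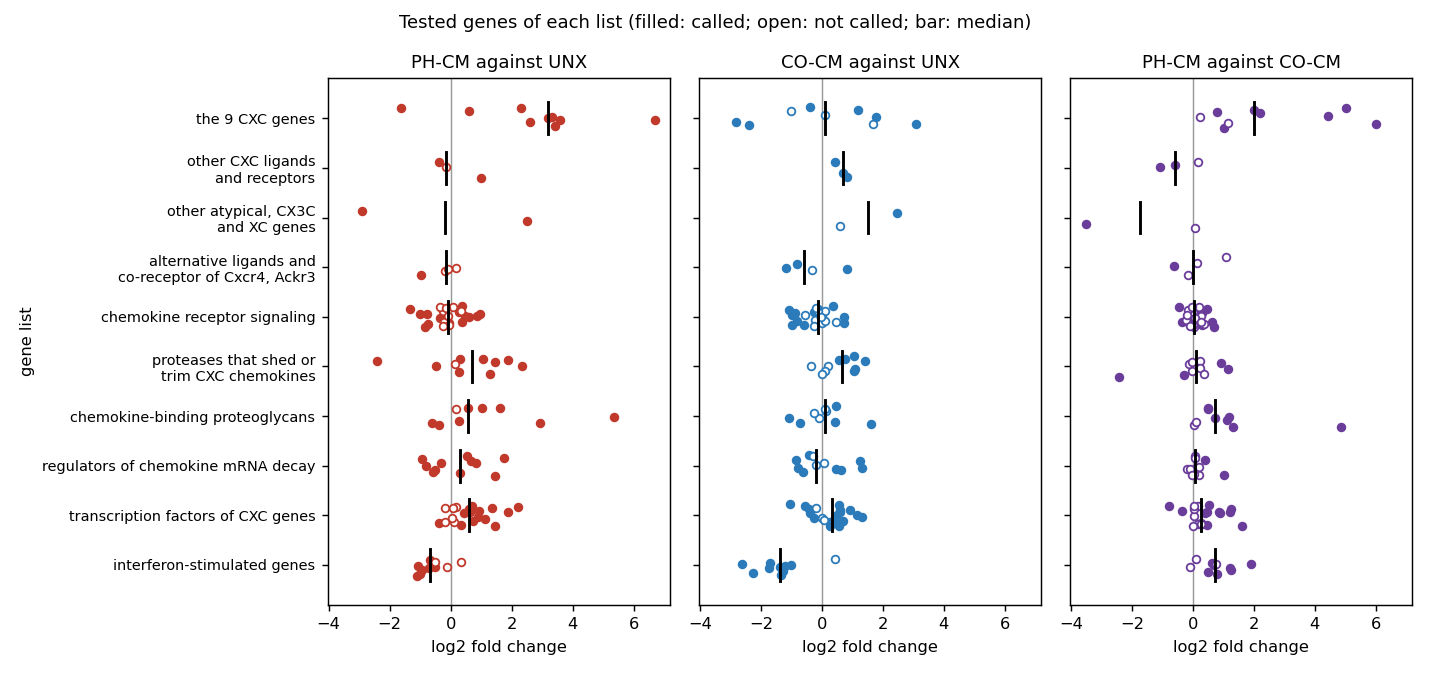
Log2 fold change (x axes) of every tested gene of the 9 CXC genes and of 9 related lists (y axis) in the 3 comparisons, with filled points for called genes, open points for genes not called and a bar for the median of the list. The CXC genes, some of them let in by the PH-CM libraries alone, had medians of 3.20, 0.12 and 2.01. The interferon-stimulated genes had medians of -0.69, -1.36 and 0.72.

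Proteoglycans, which hold chemokines at the cell surface and in the matrix, were higher with PH-CM than with CO-CM in 7 of 9 tested, and none was lower (median log2 change 0.71). Against UNX, 6 were higher and 2 lower with PH-CM and 3 were higher and 2 lower with CO-CM. Vcan, the matrix proteoglycan versican, rose from 3.39 CPM to 137 with PH-CM (log2 5.35, SE 0.16, edgeR FDR 1.68e-09) and stood at 4.70 with CO-CM. Sdc1, syndecan 1, rose most with CO-CM (log2 1.6, SE 0.22, edgeR FDR 7.31e-05), where Sdc4 fell most (log2 -1.08, SE 0.097, edgeR FDR 3.92e-06). Sdc3 fell most with PH-CM (log2 -0.60, SE 0.16, edgeR FDR 0.00578).

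Regulators of the decay of chemokine mRNA, read from a list of 11, split evenly with CO-CM, 4 higher and 4 lower. With PH-CM 6 were higher and 5 lower than in UNX. Zc3h12a, a ribonuclease that degrades inflammatory mRNAs, rose most with both media, by 1.33 with CO-CM (SE 0.090, edgeR FDR 5.17e-07) and 1.74 with PH-CM (SE 0.091, edgeR FDR 5.04e-08). Hnrnpd, which binds AU-rich elements, fell most with both, by 0.85 with CO-CM (log2 -0.85, SE 0.052, edgeR FDR 2.58e-07) and 0.93 with PH-CM (log2 -0.93, SE 0.052, edgeR FDR 8.78e-08). Between the media 2 were higher with PH-CM, Zfp36l1 most (log2 1.02, SE 0.18, edgeR FDR 0.00149).

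The label of the cells was checked on markers. All 8 macrophage markers were tested and summed to 11800 to 12600 CPM per UNX library, 19000 to 20000 with CO-CM and 21500 to 23300 with PH-CM, of which Lyz2 gave the largest part. Of 12 neutrophil markers 3 were tested, S100a8, Mmp8 and Csf3r, and all 3 were higher with both media than in UNX. Their sum with the other 9 was 12.0 to 17.1 CPM in UNX, 70.1 to 87.6 in CO-CM and 47.5 to 65.6 in PH-CM, led by Csf3r at up to 70.9, while Ly6g had no read and Mpo had 11 reads in UNX and none elsewhere. Under the filter, S100a9 had 146, 110 and 78 reads over the UNX, CO-CM and PH-CM libraries, and Ngp had 146, 124 and 52. In the same order, Ltf had 100, 75 and 18, Cxcr2 28, 14 and 2, and Camp 18, 13 and 12. Elane had 16, 2 and 6, and Retnlg 2, 2 and 4. The ELR ligands were highest with PH-CM and the neutrophil sum with CO-CM, and the part of other cells in the values was not tested. Endothelial markers, led by Kdr, summed to 33.2 to 44.0, 16.4 to 20.6 and 55.1 to 64.4 CPM in UNX, CO-CM and PH-CM, the same order of groups as Pf4 and Ppbp. Cdh5, the other tested endothelial marker, had another order, with means of 1.24, 0.183 and 0.851 CPM, and Tek and Emcn had no more than 7 reads over a group. The part of endothelial cells in the values was not tested. Dendritic cell markers stayed at or below 0.885 CPM in sum and lymphocyte markers at or below 0.15.

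The gene outside the 9 whose log2 CPM followed each CXC gene most closely over the 9 libraries was named as a description, since 3 groups of libraries make high values common. It was Lpcat2 for Cxcl1 (Pearson r 0.997), Clec4e for Cxcl2 (0.991), Ppp1r10 for Cxcl3 (0.967), Sh3bp1 for Ppbp (0.988), Impdh1 for Pf4 (0.999), Nxn for Cxcl10 (0.973), Usp19 for Cxcl16 (0.997), Cd300a for Cxcr4 (0.998) and Gm9920 for Ackr3 (0.986). Within the 9 genes, the highest values were those of Cxcl16 with Cxcr4 (0.956), Cxcl2 with Ackr3 (0.953) and Ppbp with Pf4 (0.952), and the lowest that of Cxcl10 with Cxcr4 (-0.835).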

How the data were processed

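RNA-Seq libraries of 9 BMDM cultures (3 each of UNX, CO-CM and PH-CM) were analysed from the deposited tables. The authors checked reads with FastQC and AfterQC, aligned them with STAR to GRCm38 with Ensembl 91 genes, and counted them with featureCounts 1.6.2, giving raw read counts per gene. The RPKM values were made by the authors from those counts, scaled by exon length and by the counted reads of the library. The counting options that the authors list set neither strand nor read pairs, and by default featureCounts then ignores strand and counts each mate singly. The authors' tables of comparisons hold their fold changes and p-values and were not used.

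Raw counts were tested with edgeR 4.0.16 in R 4.3.3 (quasi-likelihood, TMM factors, all 9 libraries in 1 fit), keeping genes above 1 CPM in at least 3 libraries, with Benjamini-Hochberg adjustment over all 11950 genes tested. A call required an FDR no higher than 0.05 together with a fold change no smaller than 1.2, and 95% intervals used the fit's t distribution. The 9 genes, the gene lists and the markers were chosen with earlier results of these data known, and lists are described by counts and medians alone. Beyond the 9 genes, the text names the called gene with the largest rise and fall of each list and comparison, the tested genes of the chemokine lists, neighbours, overlapping genes and markers. Some genes that this rule names are not reported here. On simulated data the fit recovered 195 of 195, 200 of 200 and 196 of 196 tested changed genes for PH-CM against UNX, CO-CM against UNX and PH-CM against CO-CM, with 14, 15 and 6 false calls. Every simulated gene had the same common dispersion, 0.00717, and no pairing by replicate. Several of the 9 genes spread more, such as Cxcl2 in UNX (SD 41.5% of the mean) and Cxcl10 in PH-CM (75.0%). The recovery therefore does not measure how well changes of such genes are found. Same-numbered libraries deviated together in all 9 pairs (r 0.276 to 0.484, against -0.376 to 0.042 for the 18 other pairs), so the replicate number pairs the libraries, and a fit with it as a block was an alternative. No libraries agreed within sampling noise (lowest chi-square per gene 10.61). Nothing in the labels ties replicates to separate mice, so p-values measure the spread between these cultures. Alternatives covered normalization, filters, tests (DESeq2 1.42.0, limma 3.58.1, the edgeR exact test), the block, thresholds, halved counts and leaving out each library. Names and coordinates came from GENCODE M21 (53274 of 53465 identifiers matched), and promoters from the RefSeq table (GRCm38.p6), which covered 8 of the 9 genes.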

Additional observations from a re-analysis of the deposited data

How the results depend on the processing

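At the thresholds used, the 9 genes kept their direction and side of the threshold under 21 alternatives in 559 values, while 5 gained and 1 lost a call and 2 reversed. Without UNX replicate 2 and without CO-CM replicate 2, the uncalled change of Cxcl2 with CO-CM against UNX turned from 0.12 to -0.10 and -0.04 on the log2 scale, within a range of -0.10 to 0.48 over the libraries left out. Cxcl1 with CO-CM against UNX was not called by limma on log2(RPKM + 1) (log2 0.19, FDR 0.017, under the fold threshold), a scale that shrinks changes of low genes. Calls were gained by Cxcl3 and Ackr3 with CO-CM against UNX and by Cxcl10 between the media, as given with these genes, and the cause was not tested. A fold change of at least 2 left 2153 genes called for PH-CM against UNX, 1655 for CO-CM against UNX and 612 for PH-CM against CO-CM. It also left 8, 5 and 6 of the 9 genes called in place of 9, 6 and 7, since Pf4 in both comparisons with UNX and Cxcl16 between the media changed less. With the replicate number as a block to respect the pairing, 7714, 7037 and 3632 genes were called, against 7534, 6806 and 3244, and no call of the 9 genes changed. Leaving out 1 library at a time gave 7288 to 7572, 6454 to 6804 and 2768 to 3386 called genes, and 9, 6 to 7 and 7 to 8 of the 9 genes. Depth limits Ackr3, Cxcl3 and Ppbp outside PH-CM, where a library held at most 32 reads.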
